A study of Mus musculus with 9 samples.

Results

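The genes that mark the dentate granule cells and the CA1, CA2 and CA3 pyramidal cells were followed across hippocampal RNA-seq libraries from young, middle-aged and quercetin-treated middle-aged mice. The set was a list of 34 symbols ordered by subfield, and 32 of them matched a gene symbol among the 22173 genes of the deposited table. These were 11 dentate, 7 CA1, 5 CA2 and 9 CA3 markers, and the symbols Dcn2 and Nr3e1 found no match and were not analysed here. All groups were C57BL/6 mice and, by the study's methods, female, and 3 libraries of hippocampus were made in each. Young control mice were 8 weeks old and middle-aged control mice 10 months old, and both received the solvent, PBS with 10% DMSO. Middle-aged quercetin mice were also 10 months old and were given quercetin, a plant flavonol, for 24 days by the sample labels. According to the methods it was injected into the tail vein in the same solvent. The duration differs between sources, since the behaviour experiment is described with a longer course of quercetin. No transgene was involved. Nothing in the sources used here says that each library came from a separate mouse, so the p-values measure the spread between these libraries.

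The hippocampus relays information through a chain of excitatory neurons. Granule cells of the dentate gyrus send mossy fibres to CA3 pyramidal cells, which project to CA1, the main output of the circuit, while the small CA2 field lies between CA3 and CA1 and is known for its part in social memory. Each of these cell types carries its own set of transcripts, so in a whole-hippocampus extract the level of a marker depends on how many of its cells were dissected as well as on how much of the transcript each cell holds. In these bulk libraries fewer cells of a type and less RNA per cell cannot be told apart.

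Levels are FPKM, fragments corrected for gene length and library size, a unit that carries no absolute depth. Fold changes are on the log2(FPKM + 1) scale, which understates the change of genes at low levels. They were tested with limma over the 13062 genes that reached 1 FPKM in 3 or more of the 9 libraries, with Benjamini-Hochberg adjustment and a threshold of 0.05, and errors are SD over 3 libraries. Of the 32 markers, 31 entered the test, and each of these was at 1 FPKM or more in all 9 libraries. The exception was the CA2 marker Map3k15, a mitogen-activated protein kinase kinase kinase, at 0.46 to 1.16 FPKM. Young control 3 and middle-aged quercetin 2 stood apart from the other libraries in transcripts of the choroid plexus, the ventricular tissue beside the hippocampus. Ttr, the transthyretin gene, was at 2390 FPKM in the former and 930.4 FPKM in the latter, whereas the other 7 libraries held 1.08 to 28.3 FPKM. The summed level of the 12 choroid plexus genes in the table was 52.2 to 2856 FPKM in the young control, 55.0 to 89.1 FPKM in the middle-aged control and 71.2 to 1136 FPKM in the quercetin group, and none was at 0 throughout. For some of the markers whose fold changes shifted without either library, the value without it is given as well.

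Markers of all 4 subfields were present, at widely different levels. Per length, Pcp4, a calmodulin-binding peptide enriched in CA2 and also found in the dentate gyrus, striatum and thalamus, had the highest mean over the 9 libraries, 102 FPKM. Mpped1, a metallophosphoesterase domain gene of CA1, followed at 67.4 FPKM. Next came Calb1 (38.3 FPKM), Bok (37.5 FPKM) and Fibcd1 (35.4 FPKM), markers of the dentate gyrus, CA3 and CA1, and the ranges of these last markers over the 9 libraries overlapped, whereas those of Pcp4 and Mpped1 overlapped neither each other nor the rest. The lowest means belonged to Map3k15 (0.681 FPKM), Iyd (2.29 FPKM), Coch (2.31 FPKM) and Tdo2 (3.02 FPKM). The coefficient of variation over the 9 libraries was smallest for Tyro3, at 4.15%, and largest for Coch (33.0%), Prkcd (31.1%) and Cacng5 (30.8%).

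The first comparison, middle-aged against young control, asks whether the subfield markers differ with age. No marker passed the test (limma, Benjamini-Hochberg adjusted p under 0.05), against 0.230% of all tested genes. The smallest adjusted p was that of the CA1 marker Wfs1, at 0.0624 in the limma fit. Middle-aged control libraries lay wholly above the young control libraries for C1ql2 and Socs2 and wholly below them for Wfs1 and Tyro3, 4 of the 31 tested markers, while 18.2% of all tested genes had groups that did not overlap (8.81% higher, 9.41% lower). At an unadjusted limma p under 0.05 there were 4 markers, Plk5, C1ql2 and Ndst3 higher and Wfs1 lower, and the share over all tested genes was 12.2% (5.59% higher, 6.63% lower). The markers split into 17 with a positive and 14 with a negative fold change, with a median log2 fold change of 0.03 beside -0.00 over all tested genes.

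The second comparison, middle-aged quercetin against middle-aged control, asks what treatment changed at the same age. No marker passed here either, against 0.168% of all tested genes, and the smallest limma adjusted p was 0.154, for the dentate marker C1ql2. Quercetin libraries lay wholly below the middle-aged control libraries for C1ql2 and Plk5 of the dentate gyrus and Fibcd1 and Pou3f1 of CA1, and wholly above them for none of the 31 tested markers. Over all tested genes the groups lay apart in 16.3%, 7.35% lower and 8.97% higher. The same 4 markers were those with an unadjusted limma p under 0.05, which 11.7% of all tested genes had, 4.69% lower and 6.98% higher. In sign, 10 markers were higher and 21 lower with quercetin, with a median log2 fold change of -0.04 beside 0.01 over all tested genes.

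Quercetin-treated middle-aged mice were finally set against young control mice. Again no marker passed, while 0.0766% of all tested genes did. Wfs1 was the single marker without overlap, lower in the quercetin libraries, and for 12.3% of all tested genes the groups did not overlap (5.82% lower, 6.45% higher). Tdo2, Wfs1 and Pou3f1 had an unadjusted limma p under 0.05, all lower, and the share over all tested genes was 6.30% (2.89% lower, 3.41% higher). Each group enters 2 of the 3 comparisons, so their values for a marker are not independent of each other.

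The precision of these libraries sets what could be seen. The largest unadjusted p that was still called was 1.07e-04 for age and 8.24e-05 for quercetin, and at the median standard error of the markers a log2 difference of 0.51 or 0.52 would have been needed to reach it. For 28 of the 31 markers the limma 95% interval of the age difference lay within 0.5 of 0 on the log2 scale, and for 27 of 31 that of the quercetin difference. Cacng5, Coch and Prkcd had intervals reaching past 0.5 in both, and Cpne9 in the quercetin comparison. The difference needed to be called ran from 0.25 to 1.35 over the markers for age and from 0.26 to 1.39 for quercetin. The plot of fold changes with their intervals shows the wide lines of these markers beside the narrow ones of Wfs1, Fibcd1 and Tyro3.

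**Figure D1:**
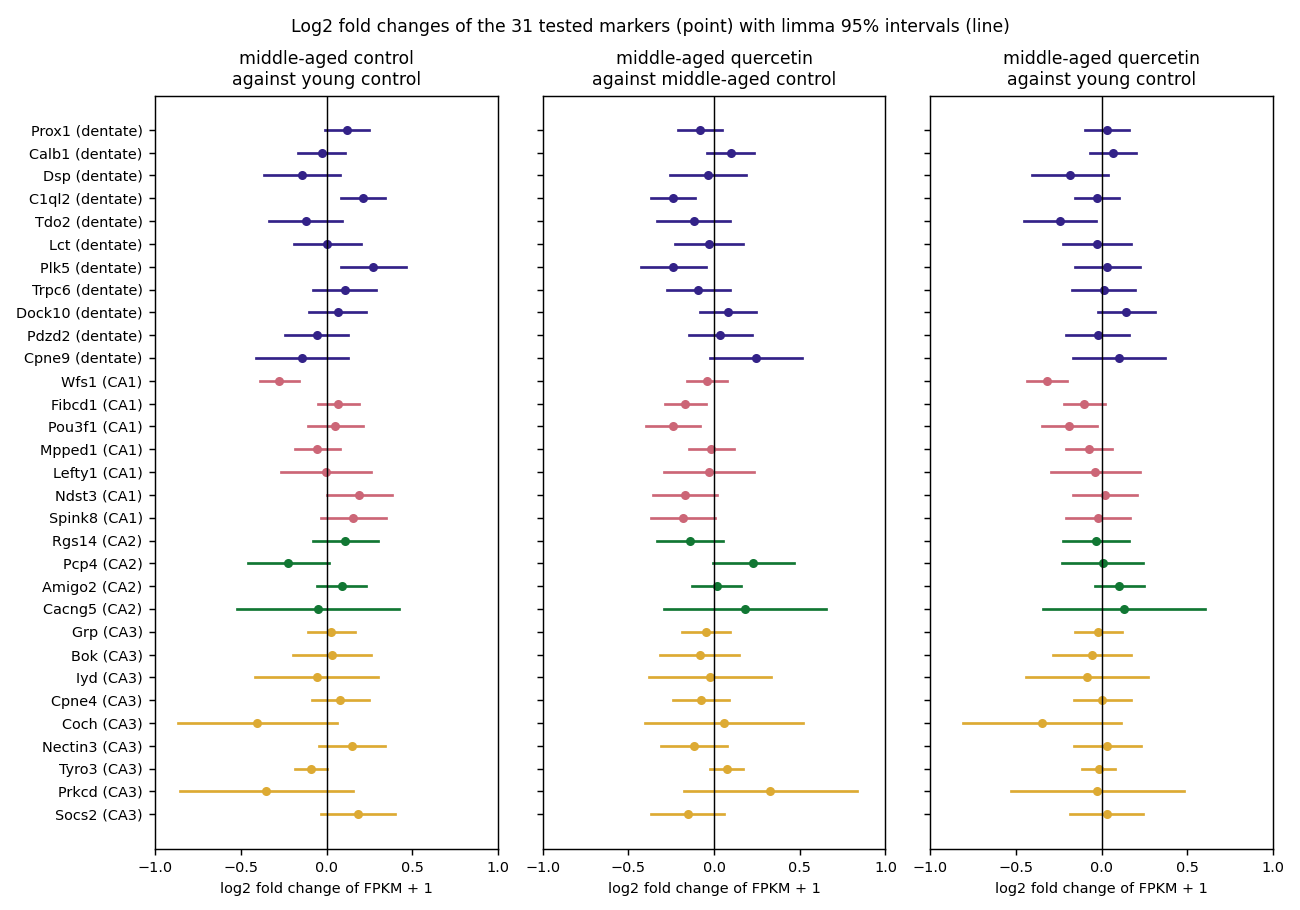
Log2 fold changes of FPKM + 1 (horizontal axis) of the 31 tested markers (vertical axis, coloured by subfield) in each of 3 comparisons, with points for the limma estimate and lines for its 95% interval. Wfs1 lies left of 0 in both comparisons against the young control (-0.28 and -0.32), the 7 CA1 markers all lie left of 0 for quercetin against middle-aged control, and none passed the adjusted threshold.

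Among CA1 markers, Wfs1 was higher in the young libraries than in every other library. The gene encodes wolframin, a membrane protein of the endoplasmic reticulum that labels CA1 pyramidal cells and is also expressed in other forebrain regions, and it lies at chr5:36966104-36988982 (GRCm38). Its level was 37.3, 37.0 and 39.3 FPKM in young control 1 to 3, 31.1, 29.5 and 32.8 FPKM in middle-aged control 1 to 3, and 31.1, 31.3 and 28.3 FPKM in middle-aged quercetin 1 to 3. All young libraries lay above all 6 middle-aged libraries, which ran from 28.3 to 32.8 FPKM, and a pattern of this form, with the young libraries on top, was found for 1.85% of all tested genes. The group means were 37.9 ± 1.27, 31.1 ± 1.67 and 30.2 ± 1.69 FPKM (SD, n = 3). On the log2 scale the middle-aged control was lower than the young control by -0.28 (SE 0.0522, limma 95% interval -0.39 to -0.16, adjusted p = 0.0624) and the quercetin group by -0.32 (SE 0.0522, limma 95% interval -0.43 to -0.20, adjusted p = 0.0870). Neither passed after adjustment. Between quercetin and middle-aged control the difference was -0.04, with a limma 95% interval of -0.16 to 0.07. By unadjusted p Wfs1 ranked 55 of 13062 genes for age and 13 of 13062 for quercetin against young control. When only the 9454 genes averaging 5 FPKM or more were tested, Wfs1 passed for age (limma adjusted p = 0.0436), and over the other alternatives its adjusted p for age ran from 0.0506 to 0.259.

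Cortical marker genes had fold changes of the same sign as Wfs1 in the age comparison. Of 12 tested genes listed as cortical markers, 11 had a negative fold change between middle-aged and young control, with a median of -0.15 on the log2 scale, and 5 had groups that did not overlap, Nr4a2 and, named after their values were seen, Cux2, Tbr1, Cux1 and Bcl6, all lower, beside 9.41% of all tested genes. Nr4a2, a nuclear receptor gene, was at 36.5 to 39.0 FPKM in the young control and 27.95 to 33.8 FPKM in the middle-aged control libraries, whereas Fezf2, a transcription factor of deep-layer projection neurons, was at 17.6 to 19.9 FPKM and 16.1 to 20.5 FPKM. The summed level of the 13 cortical genes in the table was 158 to 166 FPKM in the young control, 134 to 152 FPKM in the middle-aged control and 149 to 159 FPKM in the quercetin group, and none of them was at 0 in all libraries. For age, 4 of 5 subicular, 9 of 10 interneuron, 5 of 5 choroid plexus and 7 of 11 thalamic genes were also negative. Their medians were -0.18, -0.05, -0.79 and -0.10. Oligodendrocyte, striatal, endothelial and meningeal medians were -0.05, -0.06, -0.10 and -0.05, and those of microglia and astrocytes 0.16 and 0.03. For quercetin against middle-aged control, 10 of 12 cortical genes were positive (median 0.08), whereas Wfs1 differed by -0.04. The part of these tissues and cells in the Wfs1 values was not tested. The 7 CA1 markers were mixed in sign for age, with 4 positive and 3 negative fold changes and a median of 0.05 (0.01 without middle-aged control 1).

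Pou3f1 and Fibcd1 had their lowest means in the quercetin group. Pou3f1, a POU-domain transcription factor gene at chr4:124657646-124660655, was at 19.8, 18.9 and 18.1 FPKM in young control, 20.7, 18.8 and 19.4 FPKM in middle-aged control and 16.5, 14.6 and 18.4 FPKM in quercetin 1 to 3. Quercetin and middle-aged control libraries did not overlap, but quercetin 3 lay above young control 3. The difference from the middle-aged control was -0.24 on the log2 scale (SE 0.0726, limma 95% interval -0.40 to -0.08, adjusted p = 0.251). It was -0.16 without quercetin 2, the library with high choroid plexus transcripts.

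Fibcd1, which encodes a membrane receptor with a fibrinogen-like domain and lies at chr2:31813290-31846964, was at 36.3, 33.9 and 36.8 FPKM in young control, 36.4, 37.7 and 38.1 FPKM in middle-aged control and 33.2, 30.8 and 35.7 FPKM in quercetin 1 to 3. The quercetin libraries lay below every middle-aged control library and overlapped the young control. On the log2 scale the difference from the middle-aged control was -0.17 (SE 0.0541, limma 95% interval -0.29 to -0.05, adjusted p = 0.276).

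The most abundant CA1 marker, Mpped1, was close to even. It was at 69.8, 72.1 and 66.4 FPKM in young control, 68.0, 60.4 and 72.2 FPKM in middle-aged control and 68.1, 64.6 and 65.1 FPKM in quercetin 1 to 3. All groups overlapped, and the log2 difference was -0.06 for age (SE 0.0597, limma 95% interval -0.19 to 0.08, adjusted p = 0.754) and -0.02 for quercetin (SE 0.0597, limma 95% interval -0.15 to 0.11, adjusted p = 0.942). Without middle-aged control 2, the lowest library, the age difference was 0.01.

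Of the remaining CA1 markers, Spink8, a Kazal-type protease inhibitor gene, was at 17.7, 18.9 and 17.4 FPKM in young control, 18.7, 21.0 and 20.8 FPKM in middle-aged control and 18.8, 15.1 and 19.5 FPKM in quercetin 1 to 3. Ndst3, a heparan sulfate modifying enzyme gene not held to be specific for CA1, was at 8.11, 8.93 and 7.45 FPKM, 10.2, 8.28 and 9.95 FPKM, and 8.22, 7.71 and 8.94 FPKM in the same order. For both, the middle-aged control mean was the highest of the 3 and all groups overlapped. The log2 difference of Spink8 for quercetin against middle-aged control was -0.18 (SE 0.0848, limma adjusted p = 0.449). It was smaller in size without quercetin 2, the lowest library for this gene. Lefty1, a secreted inhibitor of Nodal signaling, was low, at 4.86, 3.99 and 3.57 FPKM in young control, 4.98, 4.01 and 3.41 FPKM in middle-aged control and 3.71, 4.34 and 3.94 FPKM in quercetin libraries. Its fold changes were within 0.04 of 0 on the log2 scale in each comparison. Spink8, Lefty1 and Mpped1 overlap other annotated genes. So do Prox1, Trpc6, Pdzd2, Amigo2 (with Pced1b), Map3k15 (with Pdha1 among others), Grp, Prkcd and Socs2 of the other subfields. The sources used here do not state whether counting used strand.

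As a subfield, CA1 had a median log2 fold change of -0.17 for quercetin against middle-aged control, with all 7 markers negative, from -0.24 to -0.02. Quercetin 2 was the lowest of the 9 libraries for Fibcd1, Pou3f1 and Spink8, and without it the median was -0.08. The mean deviation of the CA1 markers from their 9-library means was -0.062, -0.139 and -0.021 in quercetin 1 to 3, 0.088, -0.010 and 0.062 in middle-aged control 1 to 3, and 0.063, 0.043 and -0.021 in young control 1 to 3. Quercetin 3 and young control 3 were level with each other, so the quercetin and young groups touched while quercetin and middle-aged control lay apart by a small margin.

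**Figure D2:**
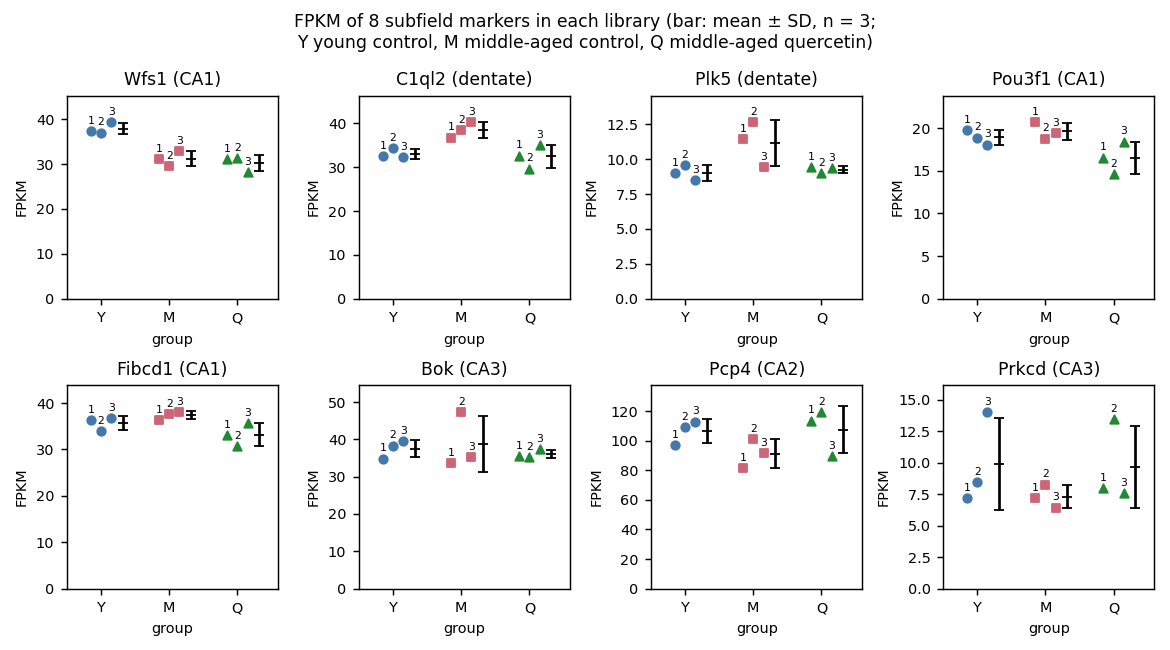
FPKM (vertical axis, from 0) of 8 markers in young control (Y), middle-aged control (M) and middle-aged quercetin (Q) libraries, with a numbered point per library and a bar for mean ± SD (n = 3). Wfs1 stands at 37.0 to 39.3 FPKM in the young and 28.3 to 32.8 FPKM in the other libraries, C1ql2 at 36.8 to 40.3 FPKM in the middle-aged control and 29.7 to 35.1 FPKM in the others, and Prkcd is high in young control 3 and quercetin 2.

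In the dentate gyrus, C1ql2 and Plk5 had their highest means in the middle-aged control. C1ql2, a secreted C1q-like protein that organises mossy fibre synapses, lies at chr1:120340582-120343174. Its level was 32.6, 34.4 and 32.3 FPKM in young control, 36.8, 38.5 and 40.3 FPKM in middle-aged control and 32.6, 29.7 and 35.1 FPKM in quercetin 1 to 3. All middle-aged control libraries lay above all of the other 6, which ran from 29.7 to 35.1 FPKM, as they did for 2.92% of all tested genes. The means were 33.1 ± 1.10, 38.5 ± 1.76 and 32.5 ± 2.70 FPKM (SD, n = 3). The middle-aged control was higher than the young control by 0.21 on the log2 scale (SE 0.0586, limma 95% interval 0.08 to 0.34, adjusted p = 0.179), and quercetin differed from the middle-aged control by -0.24 (SE 0.0586, limma 95% interval -0.37 to -0.11, adjusted p = 0.154). Both values rest on the same middle-aged control libraries, and neither passed. Quercetin and young control differed by -0.03, with a limma 95% interval of -0.16 to 0.10.

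Plk5, a polo-like kinase family gene at chr10:80356459-80365489, was at 8.99, 9.59 and 8.48 FPKM in young control, 11.4, 12.7 and 9.43 FPKM in middle-aged control and 9.40, 8.99 and 9.36 FPKM in quercetin 1 to 3. Middle-aged control 1 and 2 were the high libraries, and middle-aged control 3 overlapped the young control and exceeded quercetin 1 by a small margin. The log2 difference was 0.27 for age (SE 0.0859, limma 95% interval 0.08 to 0.46, adjusted p = 0.239) and -0.24 for quercetin (SE 0.0859, limma 95% interval -0.43 to -0.05, adjusted p = 0.320), the latter -0.15 without middle-aged control 2.

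Calb1 had the highest level of the dentate markers. The gene encodes calbindin, a calcium buffer of mature granule cells that is also present in part of CA1 and in interneurons. It was at 35.9, 36.9 and 41.1 FPKM in young control, 35.9, 36.7 and 38.8 FPKM in middle-aged control and 42.5, 40.1 and 36.9 FPKM in quercetin 1 to 3. The groups overlapped in every comparison, and the log2 difference was -0.03 for age (SE 0.0617, limma 95% interval -0.17 to 0.11, adjusted p = 0.889) and 0.10 for quercetin (SE 0.0617, limma 95% interval -0.04 to 0.23, adjusted p = 0.591). The latter was 0.05 without quercetin 1 and 0.15 without quercetin 3. Prox1, the homeobox transcription factor that defines granule cells, also overlapped between all groups. It was at 15.3, 16.0 and 17.3 FPKM in young control, 17.6, 18.4 and 17.0 FPKM in middle-aged control and 16.1, 17.9 and 16.0 FPKM in quercetin 1 to 3. The log2 difference was 0.12 for age (SE 0.0582, limma 95% interval -0.01 to 0.25, adjusted p = 0.446) and -0.08 for quercetin (SE 0.0582, limma 95% interval -0.21 to 0.04, adjusted p = 0.632). Prox1 overlaps the annotated antisense gene Prox1os, from which its reads cannot be told apart without strand.

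Other dentate markers were at lower levels. Dock10, a guanine nucleotide exchange factor gene, was at 15.0, 14.9 and 17.6 FPKM in young control, 17.2, 15.0 and 17.6 FPKM in middle-aged control and 16.5, 18.2 and 18.1 FPKM in quercetin libraries. Its groups overlapped in all 3 comparisons, as did those of the 6 dentate markers that follow. Lct, encoding lactase and known from the dorsal dentate gyrus, was at 8.51, 7.33 and 8.96 FPKM, 7.87, 9.06 and 7.91 FPKM, and 7.15, 8.24 and 8.91 FPKM in the same order. Trpc6, a cation channel gene known from the ventral dentate gyrus, was at 9.22, 10.2 and 8.92 FPKM, 8.87, 11.4 and 10.6 FPKM, and 9.10, 9.22 and 10.3 FPKM. Neither of these dorsal and ventral markers differed by more than 0.11 on the log2 scale in any comparison.

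Dsp, which encodes the desmosome linker desmoplakin, was at 7.54, 5.61 and 7.94 FPKM in young control, 6.25, 6.37 and 5.97 FPKM in middle-aged control and 5.57, 6.21 and 6.30 FPKM in quercetin 1 to 3. Tdo2, a tryptophan dioxygenase gene, was at 3.53, 3.54 and 3.01 FPKM, 3.09, 2.82 and 3.09 FPKM, and 3.25, 2.41 and 2.44 FPKM. The young control mean was the highest of the 3 for both, and the quercetin group differed from the young control by -0.18 for Dsp and by -0.24 for Tdo2 on the log2 scale (limma adjusted p = 0.818 and 0.747). For Dsp this was -0.10 without young control 3 and -0.32 without young control 2. Pdzd2, a PDZ domain gene, was at 6.90, 6.03 and 7.38 FPKM, 6.33, 6.78 and 6.22 FPKM, and 5.86, 7.25 and 6.85 FPKM. Cpne9, a copine gene, was at 4.96, 5.94 and 6.23 FPKM, 4.89, 6.29 and 4.18 FPKM, and 6.85, 6.21 and 5.54 FPKM. Neither Pdzd2 nor Cpne9 is held to be specific for granule cells, and the log2 difference of Cpne9 for quercetin against middle-aged control, 0.24 (SE 0.122, limma adjusted p = 0.476), was opposite in sign to those of C1ql2 and Plk5. It was 0.13 without middle-aged control 3 and 0.38 without middle-aged control 2.

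The 11 dentate markers were mixed in sign. For age 6 were positive and 5 negative with a median of 0.00, and for quercetin against middle-aged control 4 were positive and 7 negative with a median log2 fold change of -0.04. The mean deviation of the subfield lay between -0.036 and 0.045 in all libraries apart from middle-aged control 2, where it was 0.079.

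The CA2 markers were led by Pcp4, which lies at chr16:96467606-96525793. Its level was 97.4, 109.6 and 113 FPKM in young control, 81.4, 101 and 91.9 FPKM in middle-aged control and 114, 119.7 and 89.7 FPKM in quercetin 1 to 3. The middle-aged control had the lowest mean, 91.4 ± 9.82 FPKM beside 107 ± 8.22 FPKM and 108 ± 15.9 FPKM (SD, n = 3), but quercetin 3 lay inside the middle-aged control range and the groups overlapped. The log2 difference was -0.22 for age (SE 0.107, limma 95% interval -0.46 to 0.01, adjusted p = 0.437) and 0.23 for quercetin (SE 0.107, limma 95% interval -0.01 to 0.46, adjusted p = 0.443). The age difference was -0.14 without middle-aged control 1, and the quercetin difference was 0.15 without that library or quercetin 2 and 0.35 without quercetin 3.

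Rgs14, a regulator of G protein signaling that limits plasticity in CA2, lies at chr13:55369732-55384687 and was at 36.6, 33.9 and 31.9 FPKM in young control, 37.5, 41.4 and 32.2 FPKM in middle-aged control and 34.7, 30.3 and 35.1 FPKM in quercetin 1 to 3. Amigo2, a leucine-rich repeat adhesion protein gene, was at 10.6, 10.5 and 11.8 FPKM, 10.8, 12.8 and 11.6 FPKM, and 11.5, 12.2 and 11.9 FPKM in the same order. All groups overlapped for both, with middle-aged control 2 the highest of the 9 libraries. The log2 difference of Rgs14 was 0.11 for age (SE 0.0869, limma 95% interval -0.08 to 0.30, adjusted p = 0.653) and -0.14 for quercetin (SE 0.0869, limma 95% interval -0.33 to 0.05, adjusted p = 0.581). Without middle-aged control 2 these were 0.03 and -0.06. The limma 95% interval of Amigo2 for quercetin was -0.13 to 0.16.

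Cacng5 and Map3k15, both low, were high in a library of the young control and a library of the quercetin group. Cacng5, an auxiliary subunit gene of AMPA receptors, was at 2.58, 2.45 and 4.31 FPKM in young control, 3.13, 3.07 and 2.51 FPKM in middle-aged control and 2.92, 5.31 and 2.48 FPKM in quercetin 1 to 3. Map3k15 was at 0.57, 0.71 and 0.77 FPKM, 0.58, 0.46 and 0.50 FPKM, and 0.65, 1.16 and 0.73 FPKM in the same order. Both were highest in quercetin 2 and next highest in young control 3. Map3k15 libraries of the quercetin group lay above those of the middle-aged control, but the gene did not enter the test. The Cacng5 difference for quercetin against middle-aged control was 0.18 on the log2 scale (SE 0.214, limma adjusted p = 0.793) and -0.08 without quercetin 2.

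For the 4 tested CA2 markers the median log2 fold change was 0.02 for age and 0.10 for quercetin against middle-aged control, with signs on both sides in each. Without quercetin 2 the second median was -0.04. The highest mean deviations of this subfield were 0.187 in quercetin 2 and 0.111 in young control 3. With Cacng5 left out these libraries were at 0.043 and 0.025, below middle-aged control 2 (0.130) and quercetin 1 (0.054).

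In CA3, Bok and Tyro3 had the highest levels. Bok, a BCL2 family gene at chr1:93685575-93695770, was at 34.9, 38.3 and 39.5 FPKM in young control, 33.6, 47.4 and 35.2 FPKM in middle-aged control and 35.4, 35.3 and 37.4 FPKM in quercetin 1 to 3. Middle-aged control 2 alone stood above 40 FPKM, and the groups overlapped. The log2 difference was 0.03 for age (SE 0.104, limma 95% interval -0.20 to 0.26, adjusted p = 0.937) and -0.08 for quercetin (SE 0.104, limma 95% interval -0.31 to 0.14, adjusted p = 0.802). With middle-aged control 2 left out they were -0.12 and 0.07.

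Tyro3, a receptor tyrosine kinase gene known from CA1 as well, lies at chr2:119797740-119818104. It was at 33.3, 34.7 and 33.7 FPKM in young control, 33.1, 31.5 and 30.9 FPKM in middle-aged control and 31.9, 34.6 and 33.9 FPKM in quercetin 1 to 3. The middle-aged control libraries lay below the young control libraries without overlap, with middle-aged control 1 close under young control 1. The log2 difference for age was -0.09 (SE 0.0428, limma 95% interval -0.18 to 0.00, adjusted p = 0.437), the smallest of the 4 differences without overlap.

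Coch and Grp are CA3 markers with higher expression toward the ventral pole. Coch, which encodes the extracellular matrix protein cochlin and lies at chr12:51593283-51606619, was at 2.35, 2.76 and 3.52 FPKM in young control, 2.15, 2.39 and 1.30 FPKM in middle-aged control and 1.32, 3.18 and 1.85 FPKM in quercetin 1 to 3. Values of all groups overlapped, and the log2 difference for age, -0.40 (SE 0.210, limma 95% interval -0.87 to 0.06, adjusted p = 0.470), was the most negative of all markers. Without middle-aged control 3 it was -0.24. Grp, encoding gastrin-releasing peptide, was at 17.7, 18.4 and 15.8 FPKM in young control, 18.5, 16.6 and 17.8 FPKM in middle-aged control and 18.0, 16.1 and 17.1 FPKM in quercetin 1 to 3. Its differences were at most 0.05 on the log2 scale.

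Several CA3 markers were highest in middle-aged control 2. Cpne4, a copine gene, was at 32.2, 32 and 32.3 FPKM in young control, 33.1, 38.5 and 30.97 FPKM in middle-aged control and 33.8, 29.4 and 33.9 FPKM in quercetin 1 to 3. Nectin3, a cell adhesion protein gene, was at 11.4, 11.1 and 11.1 FPKM, 11.99, 15.0 and 10.9 FPKM, and 11.9, 11.2 and 11.5 FPKM in the same order. Iyd, the iodotyrosine deiodinase gene, was at 2.54, 2.26 and 2.30 FPKM, 1.76, 3.39 and 1.78 FPKM, and 2.55, 2.18 and 1.83 FPKM. The other middle-aged control libraries lay on either side of the young control range for Cpne4 and Nectin3 and below it for Iyd, so the groups overlapped.

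Socs2, a suppressor of cytokine signaling that is not held to be specific for CA3, was at 9.44, 8.92 and 7.89 FPKM in young control, 9.93, 10.7 and 9.55 FPKM in middle-aged control and 10.1, 9.41 and 7.46 FPKM in quercetin 1 to 3. Middle-aged control libraries lay above the young control libraries, by a small margin at young control 1. The log2 difference for age was 0.18 (SE 0.0968, limma adjusted p = 0.479), and 0.12 without young control 3.

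Prkcd, protein kinase C delta, was listed with CA3 and is a known marker of the thalamus. It was at 7.20, 8.47 and 14.0 FPKM in young control, 7.18, 8.24 and 6.42 FPKM in middle-aged control and 7.99, 13.4 and 7.56 FPKM in quercetin 1 to 3. The high libraries were young control 3 and quercetin 2, and the other 7 lay between 6.42 and 8.47 FPKM. The log2 difference was -0.35 for age (SE 0.228, limma adjusted p = 0.572) and 0.33 for quercetin (SE 0.228, limma adjusted p = 0.636), and with these libraries left out it was -0.10 and 0.09.

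The 9 CA3 markers had a median log2 fold change of 0.03 for age and -0.05 for quercetin against middle-aged control. With middle-aged control 2 left out these were -0.08 and 0.07, each of opposite sign. The heat map of deviations shows this library as a column of positive values through most of the CA3 markers.

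**Figure D3:**
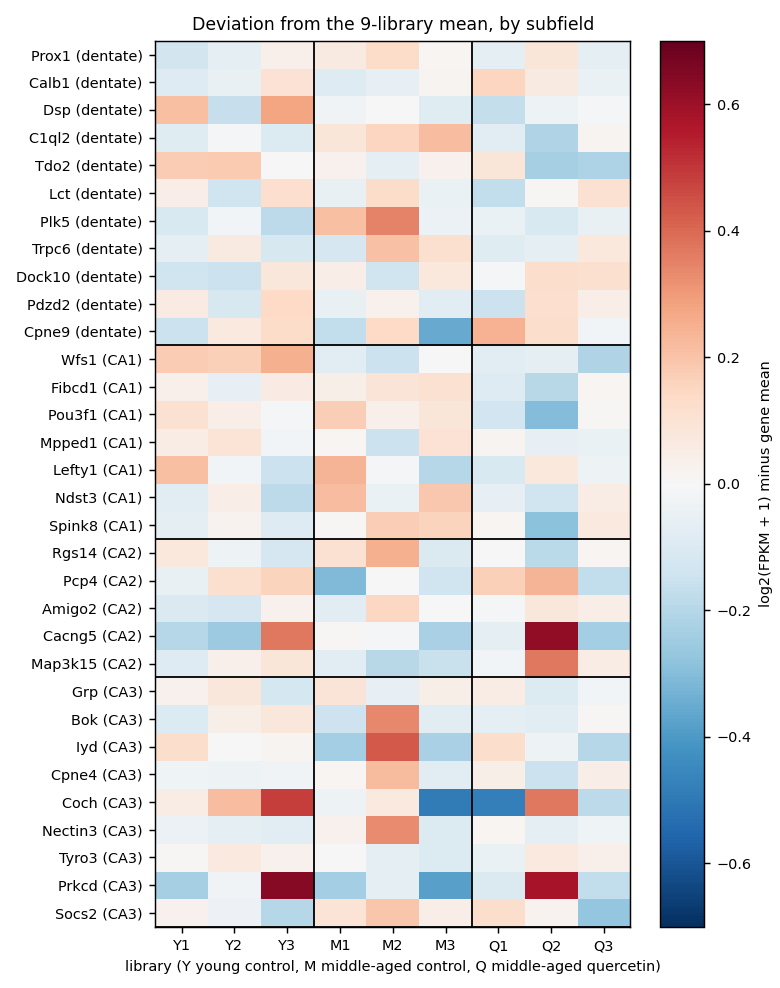
Deviation of log2(FPKM + 1) from the 9-library mean (colour, red higher and blue lower) for the 32 markers in the table (vertical axis, by subfield) in each library (horizontal axis, Y young control, M middle-aged control, Q middle-aged quercetin). Young control 3 and quercetin 2 share high values of Prkcd, Coch, Cacng5 and Map3k15, and middle-aged control 2 is the highest library for 12 of the 32 markers.

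The libraries with high choroid plexus transcripts shared a small set of markers. Young control 3 and quercetin 2 were both above the other 7 libraries for 5 of 32 markers, Pdzd2, Cacng5, Map3k15, Coch and Prkcd, and for 4.52% of all tested genes. Enpp2, the autotaxin gene of the choroid plexus and oligodendrocytes, was at 350.6 and 163 FPKM in these libraries against 40.9 to 57.7 FPKM in the rest. Because Prkcd is a thalamic marker, 13 thalamic genes in the table were set beside it. Their tested members deviated on average by 0.130 in young control 3 and 0.273 in quercetin 2 and by -0.167 to 0.010 in the other libraries. Most of the value in young control 3 came from Zic1. That gene was at 8.35 FPKM there and 9.67 FPKM in quercetin 2, against 1.22 to 3.45 FPKM in the rest. Of the 13, Zic1 and Amotl1, named here after their values were seen, were above the other 7 libraries in both. Calb2 and Ntng1, the thalamic genes with the highest levels, were not, and nor were the defining genes Tcf7l2 (1.20 and 1.5 FPKM against 0.98 to 1.70 FPKM) and Slc17a6 (6.87 and 8.47 FPKM against 3.35 to 9.37 FPKM). The summed thalamic level was 61.6 to 71.5 FPKM in the young control, 58.9 to 62.5 FPKM in the middle-aged control and 61.9 to 86.1 FPKM in the quercetin group, and no gene was at 0 in all libraries. The part of either tissue in the 5 markers was not tested.

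Middle-aged control 2 was the highest of the 9 libraries for 12 of 32 markers, 4 dentate, 1 CA1, 2 CA2 and 5 CA3, while a given tested gene was highest in this library in 14.6% of cases. It also had the highest mean deviation of the meningeal genes, 0.509, and the lowest of the cortical and subicular genes, -0.153 and -0.395. Of the 2 most abundant meningeal genes, Dcn peaked in this library, at 38.3 FPKM beside 27.7 to 33.8 FPKM elsewhere. Igf2 did not, at 24.8 FPKM beside 35.9 FPKM in young control 3. Among the 2 most abundant subicular genes, Tshz2 was lowest in middle-aged control 2 (7.32 FPKM). Fn1 was not, at 10.3 FPKM there beside 8.68 FPKM in quercetin 1. The summed level of the 5 subicular genes was 38.0 to 43.6 FPKM in the young control, 26.0 to 34.9 FPKM in the middle-aged control and 35.8 to 38.0 FPKM in the quercetin group, and none was at 0 throughout. The part of these tissues in the marker levels of this library was not tested. Quercetin 2 was the lowest library for 7 of 32 markers, C1ql2, Tdo2, Fibcd1, Pou3f1, Spink8, Rgs14 and Cpne4, where 9.88% of all tested genes were lowest in it.

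**Figure D4:**
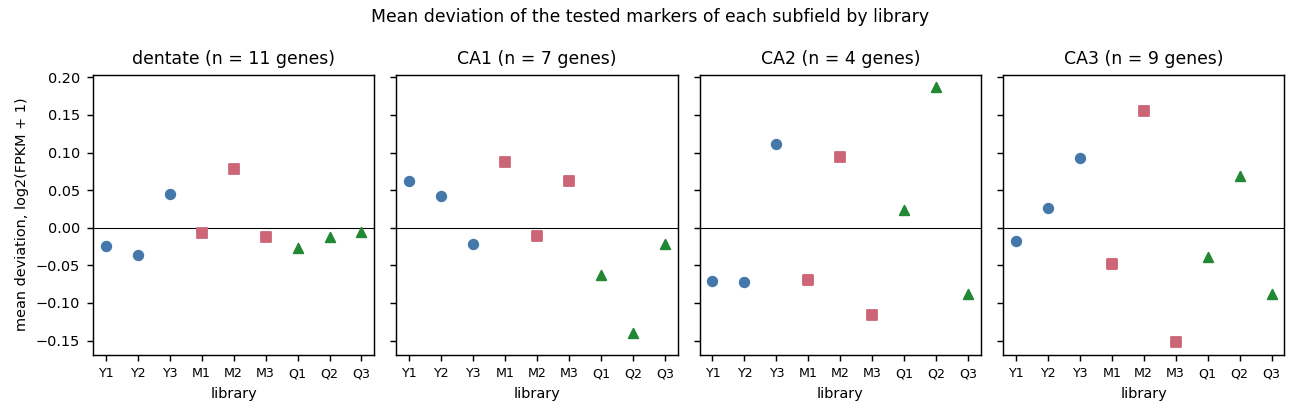
Mean deviation of the tested markers of each subfield from their 9-library means (vertical axis, log2(FPKM + 1)) in each library (horizontal axis, Y young control, M middle-aged control, Q middle-aged quercetin), 1 panel per subfield. CA1 is lowest in quercetin 2 (-0.139), CA2 is highest in quercetin 2 (0.187), and CA3 runs from -0.152 in middle-aged control 3 to 0.156 in middle-aged control 2.

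The groups overlapped for 3 of the 4 subfields, as the plot of mean deviations shows. In CA3 the middle-aged control group alone spanned -0.152 to 0.156, and the young control and quercetin libraries, at -0.017 to 0.093 and -0.088 to 0.069, lay within that span. In CA2 the quercetin libraries spanned -0.088 to 0.187. Dentate values overlapped between all groups. CA1 was the subfield in which the quercetin and middle-aged control libraries did not overlap, and no p was computed for these means. Relative to the mean deviation of 12 genes common to excitatory neurons, these CA1 libraries overlapped. The 12 genes were Slc17a7, Camk2a, Camk2b, Neurod2, Nrgn, Snap25, Rbfox3, Syt1, Grin2b, Gria2, Satb1 and Zbtb20, and their specificity for these neurons was not tested. Relative to them, the values were -0.072, -0.079 and -0.008 in quercetin 1 to 3 and 0.064, -0.042 and 0.055 in middle-aged control 1 to 3. Without this step 14 other dentate granule genes also lay apart, at -0.080 to -0.032 in quercetin and -0.009 to 0.076 in middle-aged control.

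Further genes known from the same cell types gave a second reading of each subfield, and none of them passed the limma test in any comparison. For quercetin against middle-aged control, 12 of 14 other dentate granule genes were negative with a median log2 fold change of -0.10, and 9 of 13 other CA1 genes were negative with a median of -0.05. Itpka, an inositol trisphosphate kinase gene enriched in CA1 and one of the 2 most abundant of that list, was at 107, 106 and 100.2 FPKM in young control, 109.9, 110.1 and 107 FPKM in middle-aged control and 96.5, 90.5 and 98.1 FPKM in quercetin 1 to 3. Quercetin libraries lay below all of the others for Itpka, and the log2 difference from the middle-aged control was -0.20 (SE 0.0415, limma adjusted p = 0.113). The other of these 2 CA1 genes, Wipf3, differed by -0.05. Of the 2 most abundant other dentate granule genes, Fam163b differed by -0.21 and Bhlhe22 by 0.02. Of 13 other CA3 genes 11 were negative with a median of -0.06, of 12 other CA2 genes 9 were negative with a median of -0.05, and of 12 genes common to excitatory neurons 10 were negative with a median of -0.03. All of these lists had a negative median, beside 0.01 over all tested genes. Several lists of other cells and regions were of the opposite sign in the same comparison. Positive were 10 of 10 interneuron, 8 of 8 oligodendrocyte, 10 of 12 cortical and 9 of 11 thalamic genes, with medians of 0.07, 0.06, 0.08 and 0.08. Striatal, subicular and choroid plexus medians were 0.11, 0.26 and 0.63, and those of microglia and astrocytes 0.03 and 0.01. Of all 13062 tested genes, 6923 were positive and 6139 negative. The mean deviation of the 5 tested choroid plexus genes was -0.508, 1.955 and -0.487 in quercetin 1 to 3, so that median rests on quercetin 2. That of the oligodendrocyte genes was -0.168, 0.110 and 0.159, with quercetin 1 the lowest of the 9 libraries. Meningeal genes shared the sign of the excitatory lists, with 7 of 7 negative and a median of -0.10. Of 8 endothelial genes 5 were negative, with a median of -0.02. Their part in the values of the subfield markers was not tested.

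For age, the medians of these lists were 0.05 (other dentate), 0.00 (other CA1), 0.00 (other CA2) and 0.04 (other CA3) on the log2 scale. The 7 tested mossy cell genes, from the hilar neurons of the dentate gyrus, had medians of 0.06 for age and 0.05 for quercetin. A list of 12 genes that differ along the dorsal-ventral axis, 7 of them markers described above, had medians of 0.01 and -0.04, with 7 and 5 positive. It pools dorsal with ventral genes, whose opposite shifts could cancel, so these medians cannot show whether levels shifted along the axis. The medians over all tested genes were -0.00 and 0.01.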

How the data were processed

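The authors deposited FPKM for 22173 genes, and 18798 of them had values. For RNA-seq the paper names HISAT2, Bowtie2 and RESM, whereas TopHat2, Cufflinks and the build GRCm38 stand in the submitters' processing notes. The tools behind the deposited values are therefore not settled. The table holds no read counts, which leaves the absolute depth unknown and allows no count model. Median-of-ratios factors over the libraries were 0.994 to 1.01. A gene was tested when it reached 1 FPKM in 3 or more of the 9 libraries (13062 genes). Their log2(FPKM + 1) values entered a single limma model (version 3.58.1, R 4.3.3) of all libraries, in which eBayes was run with trend=TRUE and each of 3 contrasts was tested two-sided. Benjamini-Hochberg adjusted p-values under 0.05 over all tested genes counted as called. The fit was tested on simulated data.

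The members and gene lists were chosen with earlier results of these data known. All markers in the table are given by library. The SE, 95% interval and adjusted p of at least 1 contrast are given for those called (none), and in each subfield for the 2 with the highest mean FPKM and the 2 with the smallest unadjusted p in any contrast. Of other lists, the 2 genes with the highest levels are named for some lists and not for others, and further genes were named after their values were seen. The subfield of a marker follows the order of the list. Gene positions are from the RefSeq annotation of GRCm38.p6. Alternatives were another pseudocount (0.1), 2 other filters (none, or an average of 5 FPKM), 2 scalings, a fit without each library in turn, the replicate number as a block, fits of the 6 compared libraries, eBayes with no trend, and core members only. The mean deviations of the subfields were also taken relative to the genes common to excitatory neurons. A fit without both young control 3 and middle-aged quercetin 2 was added after seeing the data. Replicate numbers carried no label of a shared litter, batch or day. Plots were made in matplotlib 3.10.9 under Python 3.11.15.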

Additional observations from a re-analysis of the deposited data

How the results depend on the processing

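No marker passed the limma test under any of 18 alternatives except Wfs1 for age, which passed when only genes averaging 5 FPKM or more were tested (1 marker called, with fewer genes to adjust over). Of 1659 marker fold changes recomputed, no other changed its side of the threshold. The number of all genes called was less stable. For age it was 30, and 66 with that filter, 17 with no filter, 17 with no mean-variance trend, 9 without young control 3 and quercetin 2 together, and 12 (without middle-aged control 1) to 47 (without middle-aged control 2) with a library left out. For quercetin against middle-aged control it was 22, and 1 with no filter, 2 with no trend, 14 with only the groups compared, 1 without both of those libraries, and 3 (without middle-aged control 1 or quercetin 2) to 29 with a library left out. For quercetin against young control it was 10, and 4 with no filter, 4 with only the groups compared, 4 without both libraries and 4 (without young control 3) to 7 with a library left out. Apart from the filters and the smaller fits, the cause was not tested.

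Subfield medians of the log2 fold change also moved. For the dentate gyrus the age median was 0.064 with core members only and 0.058 without both libraries, and -0.048 to 0.058 with a library left out. Its quercetin median was -0.085 with core members only and -0.064 to 0.012 with a library left out, and against young control it was -0.037 to 0.038. Without both libraries the quercetin medians were -0.078 for CA1 and -0.040 for CA2, and with a library left out they ran from -0.22 to -0.078 for CA1 and from -0.040 to 0.18 for CA2. For CA3 the ranges were -0.083 to 0.054 for age and -0.13 to 0.065 for quercetin, and the age ranges of CA1 and CA2 were 0.014 to 0.082 and -0.052 to 0.099. The cause of these shifts was not tested.

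Libraries with the same replicate number deviated together only weakly (r over 13062 genes from -0.20 to 0.12), so the numbers were not taken to pair the samples. With the replicate number as a block, 13 genes were called for quercetin against middle-aged control and 6 for quercetin against young control, and the limma adjusted p of Wfs1 was 0.0995 for age and 0.177 for quercetin against young control. FPKM without counts leaves the counting error of low markers, such as Iyd, Coch and Tdo2, unknown.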
